A study of Mus musculus with 6 samples.

Results

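The genes described here encode the stress-activated MAP kinases p38 and JNK and the kinases that switch them on, with Mapk11, the p38beta gene, as the member singled out. Mapk11 was chosen by its measured fall in the same PJ34 against PBS contrast that is described below, and the other members were added by family name. The values of the members are therefore a description, with no p for any of them, and 95% intervals are given to show the precision. The list held 10 genes: the p38 genes Mapk11, Mapk12, Mapk13 and Mapk14, the JNK genes Mapk8 and Mapk9, and the MAP2 kinase genes Map2k3, Map2k4, Map2k6 and Map2k7. A gene counted as measured when a probe set carried its symbol and no other, which held for 9 of the 10, out of 19938 genes measured in this way. Map2k7, which encodes the JNK activator MKK7, was not analysed here. Each of the 9 genes had 1 such probe set.

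The study compared C1498 cells, a mouse leukaemia line with a C57BL/6J strain background that the labels call acute myeloid, after culture for 48 h in PJ34 at 20 μM or in PBS alone. PJ34 is a small-molecule inhibitor of poly(ADP-ribose) polymerase 1, and PBS is its saline vehicle. RNA from 3 samples per group was hybridised to 1 Affymetrix Mouse Gene array each. Both groups are the same cell line grown in culture, with no second line, dose or time, so that no value below can be set against another leukaemia or another exposure.

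The p38 and JNK kinases are the last step of a relay of kinases that runs from MAP3 kinases through MAP2 kinases. MKK3 and MKK6, encoded by Map2k3 and Map2k6, phosphorylate p38. MKK7 phosphorylates JNK, and MKK4, encoded by Map2k4, can phosphorylate both. The relay answers stress, inflammatory cytokines and DNA damage, and in leukocytes it governs cytokine output, survival and death. These kinases are switched on by phosphorylation, which arrays do not read, so the values below are mRNA levels and not kinase activities.

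In the RefSeq gene table Mapk11 and Mapk12 lie side by side on chromosome 15, as Mapk14 and Mapk13 do on chromosome 17. The promoters of Mapk11, of its partner Mapk12, of Plxnb2, the gene on the other side of Mapk11, and of Mapk14 are printed so that a member with a large difference and its neighbours can be seen beside the main p38 gene. Each stretch runs 5′ to 3′ on the strand of its gene, from 250 bases before the RefSeq start to 50 after it, on build GRCm38.p6. They lie at chr15:89149557-89149856 for Mapk11, chr15:89140654-89140953 for Mapk12 and chr15:89180739-89181038 for the outer start of Plxnb2, all on the minus strand, and at chr17:28691092-28691391 on the plus strand for the first start of Mapk14. Capitals mark the GC box GGGCGG, bound by SP1, or its reverse CCGCCC, and in Mapk14 also the CCAAT box, read here as ATTGG.
Mapk11: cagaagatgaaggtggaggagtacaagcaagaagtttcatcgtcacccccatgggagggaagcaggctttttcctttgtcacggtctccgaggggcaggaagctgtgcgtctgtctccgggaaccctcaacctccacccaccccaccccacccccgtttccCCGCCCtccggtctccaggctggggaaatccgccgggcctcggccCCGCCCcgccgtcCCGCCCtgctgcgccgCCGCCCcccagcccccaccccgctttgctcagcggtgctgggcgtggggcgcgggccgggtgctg
Mapk12: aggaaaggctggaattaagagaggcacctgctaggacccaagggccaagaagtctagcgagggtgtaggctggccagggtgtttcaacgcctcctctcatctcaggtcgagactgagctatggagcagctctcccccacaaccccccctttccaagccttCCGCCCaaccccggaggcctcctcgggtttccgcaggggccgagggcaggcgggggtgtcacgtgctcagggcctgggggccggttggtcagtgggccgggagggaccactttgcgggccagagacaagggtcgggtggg
Plxnb2: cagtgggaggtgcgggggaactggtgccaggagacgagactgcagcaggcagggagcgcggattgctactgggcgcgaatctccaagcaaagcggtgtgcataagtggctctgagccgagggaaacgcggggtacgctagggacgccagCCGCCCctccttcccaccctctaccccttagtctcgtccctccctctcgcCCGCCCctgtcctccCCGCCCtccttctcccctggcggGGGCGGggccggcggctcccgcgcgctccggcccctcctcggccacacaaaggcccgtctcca
Mapk14: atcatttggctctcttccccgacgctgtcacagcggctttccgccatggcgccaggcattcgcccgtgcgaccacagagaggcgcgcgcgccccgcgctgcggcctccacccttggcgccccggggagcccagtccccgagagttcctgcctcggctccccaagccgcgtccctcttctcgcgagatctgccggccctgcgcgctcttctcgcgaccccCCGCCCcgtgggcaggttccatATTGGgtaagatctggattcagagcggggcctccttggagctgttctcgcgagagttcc

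The Mapk11 promoter held 4 GC boxes and 24 CpG dinucleotides, and 69.7% of its bases were G or C. The outer promoter of Plxnb2 had 4 GC boxes, 27 CpG and 70.3% G or C, and its inner one, not printed, 3 GC boxes, 15 CpG and 61.7% G or C. Mapk12 had 1 GC box, 14 CpG and 65.3% G or C, and Mapk14 had 1 GC box, 1 CCAAT box, 33 CpG and 68.7% G or C. Of the other members, Map2k3 had 4 GC boxes, Mapk13 had 5 and 1 of the starts of Mapk8 had 7. The PJ34 minus PBS log2 differences of these 3 genes were 0.14, -0.02 and 0.08. Further along chromosome 15, Tubgcp6 had 1 GC box and Dennd6b 2, with differences of -0.29 and -0.30. Whether the number of GC boxes goes with the difference was not tested. Over the 32851 promoters of the table the median was 7 CpG and 52.7% G or C, and 35.7% held at least 1 GC box on either strand. A CCAAT box was present in 37.4%. The other motifs searched on both strands were the TATA box TATAAA (13.6% of promoters), the cAMP response element TGACGTCA (1.79%), the AP-1 site TGACTCA (5.2%) and the ETS site CCGGAAGT (3.89%), and none of them was found in these 4 stretches. No marked motif overlapped another. A match of letters is a description and no evidence of binding.

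Values are log2 expression values as deposited, with a median of 4.42 over all probe sets, and a difference is the mean of the 3 PJ34 arrays minus the mean of the 3 PBS arrays. Mapk11 was at 8.14, 8.24 and 8.26 in the PBS samples and at 7.22, 7.22 and 7.05 in the PJ34 samples. All 3 PJ34 values lay below all 3 PBS values, and the groups were separated by 0.915, many times the spread within either. The means were 8.21 ± 0.0651 (SD, n = 3) with PBS and 7.16 ± 0.0984 (SD, n = 3) with PJ34. The difference was -1.05 (SE 0.0738, 95% interval -1.22 to -0.88), so that the signal was 2.07-fold lower with PJ34. It ranked 23rd in size among 23410 probe sets with a gene. Without any 1 of the 6 arrays it lay between -1.09 and -0.99.

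Mapk14, which encodes p38alpha, the form found in most tissues, was at 9.65, 9.77 and 9.68 with PBS and 9.70, 9.80 and 9.65 with PJ34. The groups overlapped throughout, and the difference was 0.02 (SE 0.0692, 95% interval -0.14 to 0.17). Its interval thus ran from 0.907-fold to 1.13-fold. Mapk13, which encodes p38delta, was at 4.33, 4.60 and 4.43 with PBS and 4.53, 4.43 and 4.34 with PJ34, a difference of -0.02 (SE 0.0865, 95% interval -0.22 to 0.17). Its 6-array mean of 4.44 was barely above the median level, where a share of the signal may be background.

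Mapk12, the p38gamma gene next to Mapk11, was at 5.15, 4.83 and 4.99 with PBS and 4.82, 4.71 and 4.63 with PJ34. Its groups did not overlap, but only 0.0099 lay between the lowest PBS and the highest PJ34 sample. The difference was -0.27 (SE 0.0926, 95% interval -0.48 to -0.06), a signal 17.0% lower, and it ran from -0.35 to -0.19 when 1 array was left out.

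The JNK genes overlapped between the groups. Mapk8, which encodes JNK1, was at 7.30, 7.48 and 7.34 with PBS and 7.47, 7.53 and 7.36 with PJ34. The difference was 0.08 (SE 0.0765, 95% interval -0.10 to 0.25). Mapk9, which encodes JNK2, was at 6.99, 7.03 and 7.01 with PBS and 6.94, 7.11 and 6.92 with PJ34. Here the difference was -0.01 (SE 0.0715, 95% interval -0.18 to 0.15), and the PJ34 samples spanned 0.196 where the PBS samples spanned 0.0407. The JNK3 gene Mapk10, a largely neuronal form that was not on the members' list, lay below the median level and differed by 0.04.

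Among the MAP2 kinases, Map2k3 was at 6.76, 6.91 and 6.95 with PBS and 7.11, 6.96 and 6.99 with PJ34. All PJ34 values were above all PBS values, though by only 0.0093 at the nearest, and the difference of 0.14 had an interval that included 0 (SE 0.0758, 95% interval -0.03 to 0.32). Map2k6, the other activator of p38, was at 6.38, 6.45 and 6.48 with PBS and 6.41, 6.56 and 6.31 with PJ34. The PJ34 samples lay on both sides of the PBS samples (difference -0.01, SE 0.0787, 95% interval -0.19 to 0.17). Map2k4, which encodes MKK4 upstream of both families, was at 7.99, 8.11 and 7.95 with PBS and 7.99, 8.11 and 8.11 with PJ34. The highest values of both groups were alike, and the difference was 0.05 (SE 0.0708, 95% interval -0.11 to 0.22).

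**Figure D1:**
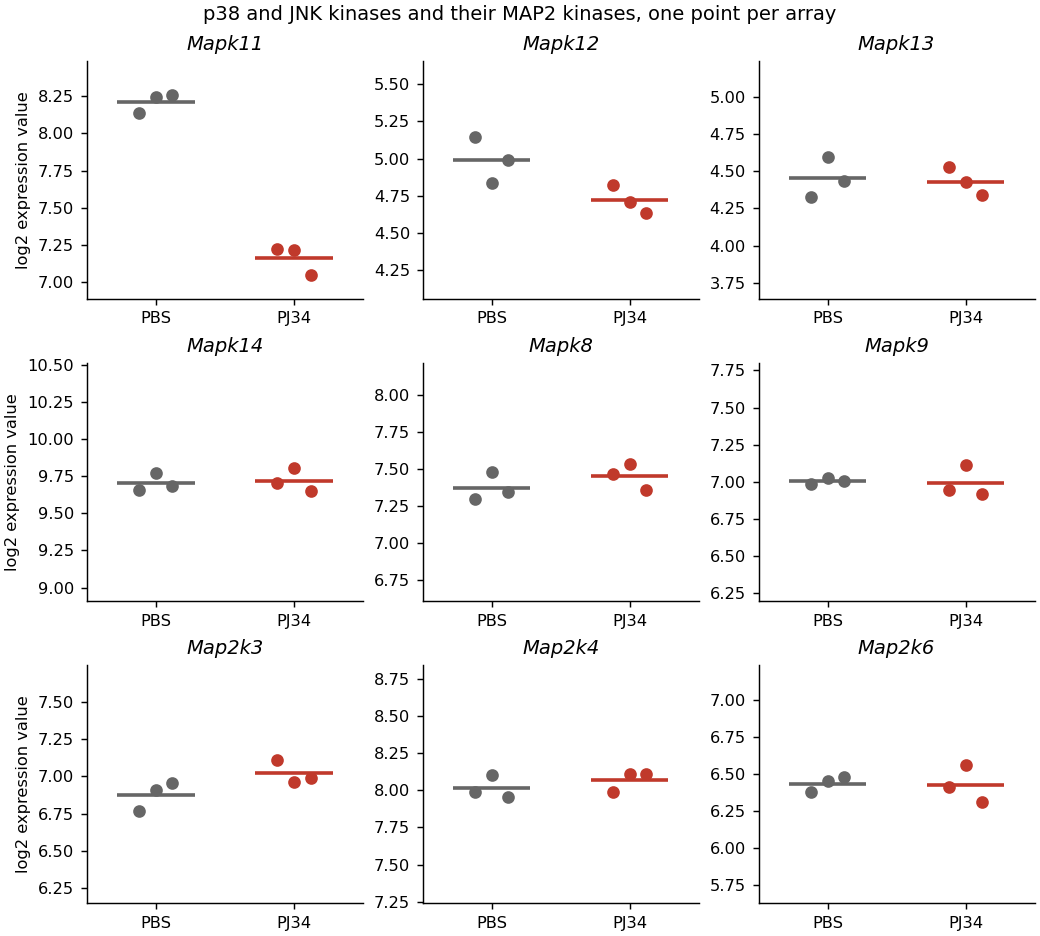
Log2 expression value (vertical axis, same span in every panel) of the 9 measured kinase genes, 1 point per array, in grey for PBS and red for PJ34, and a line at each group's mean. Mapk11 separates by 0.915, Mapk12 and Map2k3 by under 0.01, and the groups of the other 6 genes overlap.

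Of the 9 measured genes, 1 (Mapk11) was lower by limma at an adjusted p under 0.05, none was higher and 8 did not pass. Over all 23410 probe sets 1.34% were lower and 1.72% higher, or 3.06% in either direction. Since Mapk11 was picked for this fall, that count follows from the choice and nothing is read from it. The 3 PJ34 values were all below the PBS values for 2 of the 9 (10.9% of all probe sets) and all above for 1 of them (12.6% of all probe sets). The median difference of the 9 genes was -0.0071 and that of the 8 other than Mapk11 was 0.0047, beside 0.0029 over all probe sets. Of those 8 genes, 7 differed by less than 0.15, as did 75.2% of all probe sets. The median interval reached 0.173 to either side, so that changes below about that size could not be told from 0 with 3 arrays per group.

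**Figure D2:**
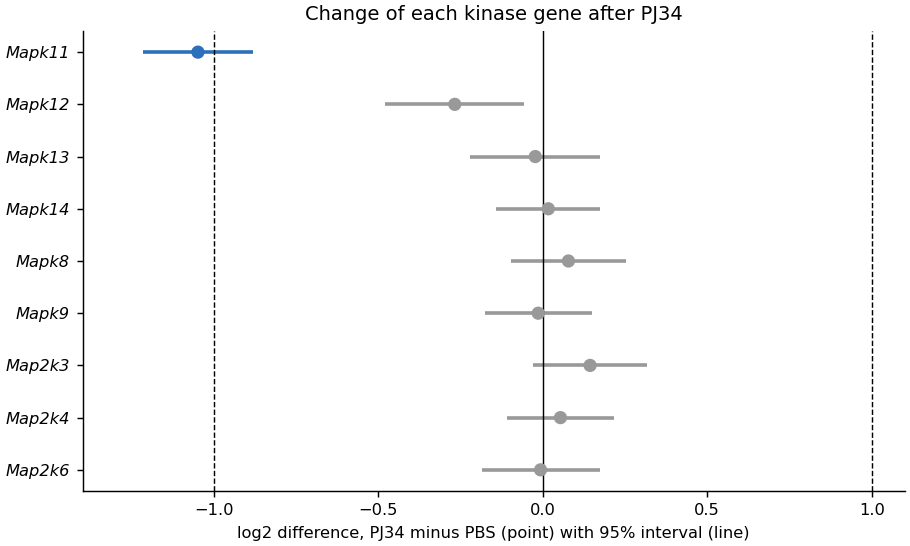
Log2 difference, PJ34 minus PBS (horizontal axis), of each of the 9 measured kinase genes, with points at the difference and lines for the 95% interval, and dashed lines at a log2 difference of 1 and -1. Mapk11 (blue) lies at -1.05, Mapk12 at -0.27, and the intervals of the other 7 genes include 0.

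The genes beside Mapk11 on chromosome 15 were lower as well. Hdac10, a polyamine deacetylase and the nearest measured gene beyond Mapk12, was at 8.23, 8.41 and 8.33 with PBS and 7.45, 7.35 and 7.37 with PJ34. The difference was -0.94 (SE 0.0703, adjusted p = 0.000713 from limma), close to that of Mapk11. Plxnb2, the semaphorin receptor plexin-B2 on the other side, was at 6.97, 7.13 and 7.04 with PBS and 6.26, 6.22 and 6.06 with PJ34. It differed by -0.87 (SE 0.0781, adjusted p = 0.00161 from limma). For both genes the groups were far apart, and both kept passing limma's test whichever of the 6 arrays was dropped. Under the study's own test, run gene by gene without limma's shared spread and then adjusted, Plxnb2 narrowly missed the threshold (adjusted p = 0.0517) and Hdac10 passed (adjusted p = 0.0399).

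The next genes outwards moved less and did not pass. Tubgcp6, a gamma-tubulin complex protein beyond Hdac10, was at 6.73, 6.91 and 6.81 with PBS and 6.49, 6.62 and 6.48 with PJ34 (difference -0.29, SE 0.0735, adjusted p = 0.0812 from limma). Dennd6b, a DENN domain protein beyond Plxnb2, was at 6.02, 6.16 and 6.21 with PBS and 5.84, 5.88 and 5.78 with PJ34 (difference -0.30, SE 0.0711, adjusted p = 0.0666 from limma). Neither overlapped between the groups, and both passed when eBayes was robust and followed intensity (adjusted p = 0.0238 and 0.027 from limma). Both also passed without dim probe sets, and Tubgcp6, which has 2 probe sets, passed when their mean was used. Neither passed in any fit that left out 1 array. Along the chromosome the order was thus Tubgcp6, Hdac10, Mapk12, Mapk11, Plxnb2 and Dennd6b, and in all 6 genes every PJ34 value was below every PBS value (10.9% of all probe sets). This stretch was delimited after its values had been seen, so it gets no test of its own. Its differences ran from -1.05 to -0.27, and 3 of the 6 passed. The smaller change of Mapk12 lay between the larger ones of Hdac10 and Mapk11, and its means of 4.99 and 4.72 were close to the median level of 4.42.

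The view was then widened to 10 measured genes on each side of the pair, a number chosen after these values had been seen. Among the 22 genes shown, the 3 that passed were Hdac10, Mapk11 and Plxnb2, all lower (1.34% of all probe sets were lower). The 16 genes outside the stretch of 6 ranged from -0.32 to 0.16 with a median of -0.0116, and 1 of them had an unadjusted p under 0.05, as had 16.7% of all probe sets. That gene was Trabd (difference -0.32, SE 0.0747, adjusted p = 0.0635 from limma). It fell slightly more than Tubgcp6 and Dennd6b at the ends of the stretch. Its groups did not overlap either (10.9% of all probe sets lay lower in this way). Like those 2 genes, Trabd passed without dim probe sets and when eBayes was robust and followed intensity. It passed in no fit that left out 1 array. Between Trabd and the stretch lies Selenoo, which encodes a selenoprotein and differed by -0.02. On the far side Ppp6r2 and Sbf1 differed by -0.04 and 0.06. Since the stretch was delimited after its values had been seen, nothing is read from where it ends.

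The genes around Mapk14 and Mapk13 on chromosome 17 gave no such stretch. None of 22 genes passed limma's test there, none passed in the pair itself, and the 20 neighbours ranged from -0.21 to 0.14 with a median of -0.0033. Of these, 1 gene had an unadjusted p under 0.05, the ion transporter gene Slc26a8 next to Mapk14 (difference -0.21, adjusted p = 0.193 from limma). The splicing kinase gene Srpk1, one place further out, differed by 0.05. On the Mapk13 side the chromatin reader gene Brpf3 differed by 0.14 and Pnpla1 by -0.04.

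RefSeq places 9 genes in the stretch from Tubgcp6 to Dennd6b. The 3 without a probe set used here are the long noncoding RNA Gm46530, listed between Hdac10 and Mapk12, and the microRNA genes Mir7118 and Mir6958. The RefSeq promoter table lists 5 of the 6 measured genes, all on the minus strand. Whether the neighbouring values share a source was not tested, and the genome build behind the probe sets is not given in the sources used here.

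**Figure D3:**
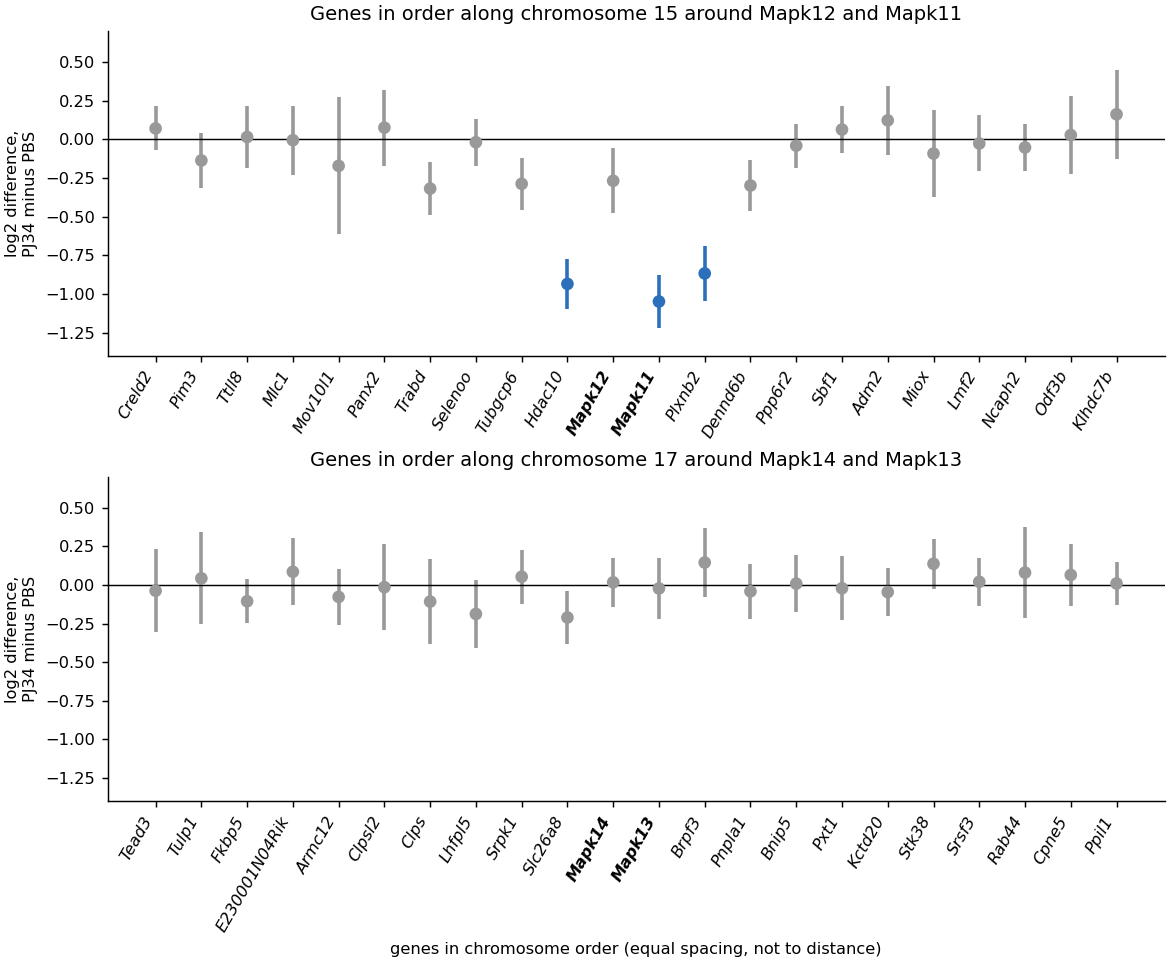
Log2 difference, PJ34 minus PBS (vertical axis), with its 95% interval for 10 measured genes on each side of Mapk12 and Mapk11 (upper panel) and of Mapk14 and Mapk13 (lower panel), in chromosome order at equal spacing, with blue for genes that passed the test. Hdac10, Mapk11 and Plxnb2 stand at -0.94, -1.05 and -0.87, and no gene of the lower panel passed.

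The genes whose profile over the 6 arrays was closest to that of Mapk11 were found by Euclidean distance after centring each gene on its own mean. They were Cdk15 (distance 0.0840), Add3 (0.145), Hdac10 (0.204), Cox6a2 (0.205) and Paqr3 (0.211). Cdk15 encodes a cyclin-dependent kinase, Add3 the cytoskeletal protein adducin gamma, Cox6a2 a muscle-type subunit of the respiratory chain and Paqr3 a membrane protein of the Golgi. Their differences were -1.02, -0.95, -0.94, -1.10 and -0.89, each near the -1.05 of Mapk11. Over the 6 arrays, which fall into 2 groups, such a likeness mostly restates the group difference and is given as a description. Hdac10 was the only one of the 5 that is also a neighbour of Mapk11.

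**Figure D4:**
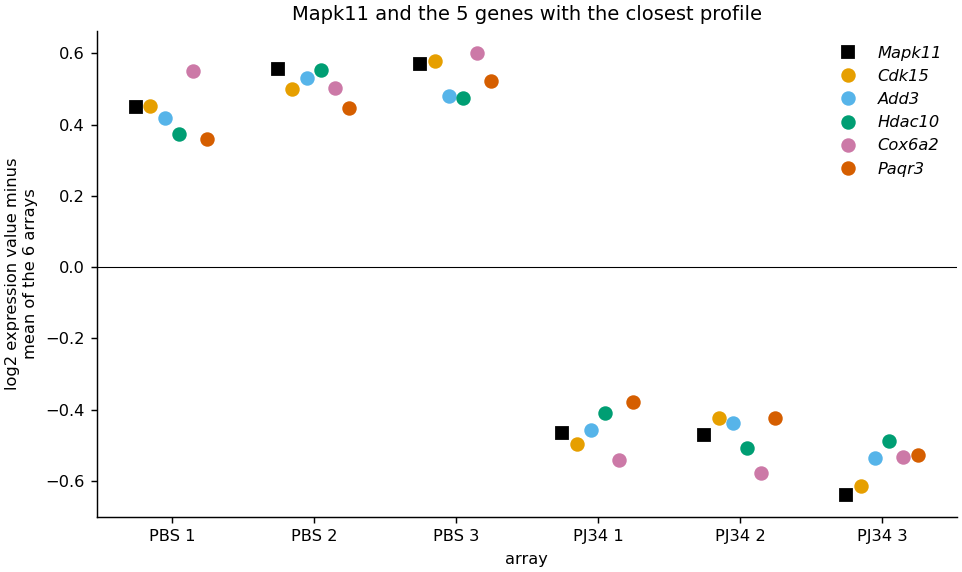
Log2 expression value minus the gene's mean over the 6 arrays (vertical axis) on each array for Mapk11 (black squares) and the 5 genes with the closest profile (coloured points). All 6 genes lie above 0 in the PBS samples and below 0 in the PJ34 samples, and Mapk11, Cdk15, Add3 and Paqr3 are lowest in PJ34 replicate 3.

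Other genes of the p38 and JNK relay were described in 9 lists by role, with 93 of 99 listed genes measured. Of the 93, 7 were higher (7.53%) and 3 lower (3.23%) by limma at an adjusted p under 0.05, where 1.72% and 1.34% of all probe sets were. Their median difference was 0.05. The lists were drawn up with earlier results of these data known, so nothing is read from these shares. These counts fell whichever array was dropped, to 4 to 6 higher and 1 to 2 lower. The number higher was 4 without PBS replicate 1, PBS replicate 2, PJ34 replicate 1 or PJ34 replicate 3. The number lower was 1 without PBS replicate 2 or 3. Of the 10 genes that passed, 5 did so in all 6 fits without 1 array (Gadd45g, Dusp1, Ddit3, Zfp36 and Csf2). By the study's own test, adjusted in the same way, 3 were higher (Gadd45g, Dusp1 and Dusp10) and 1 lower (Ddit3).

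None of 21 MAP3 kinases and TAB proteins passed, and 3 were higher at an unadjusted p under 0.05, as were 8.95% of all probe sets. Their median difference was 0.03. The lowest p values belonged to Map3k8, the kinase Tpl2 (difference 0.40, SE 0.101, adjusted p = 0.0791 from limma), and Tab3, a partner of the kinase TAK1 (0.23, SE 0.0657, adjusted p = 0.116). Of the MAP4 kinases 5 of 7 were measured and none passed, with 1 lower at an unadjusted p under 0.05, as were 7.74% of all probe sets. This gene, Map4k1, a kinase of blood cells that acts above JNK, differed by -0.30 (SE 0.0676, adjusted p = 0.0581 from limma), and Tnik, which also acts above JNK, by 0.07.

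The Gadd45 genes, whose proteins bind and activate the MAP3 kinase MEKK4, passed in opposite directions. Gadd45g was at 6.35, 6.19 and 6.38 with PBS and 6.99, 6.99 and 7.01 with PJ34, and rose by 0.69 (SE 0.0695, adjusted p = 0.00248 from limma). Gadd45b also rose, by 0.47 (SE 0.0817, adjusted p = 0.0212). Gadd45a was at 7.50, 7.62 and 7.62 with PBS and 7.12, 7.16 and 7.07 with PJ34, a difference of -0.47 (SE 0.0659, adjusted p = 0.00963). In none of the 3 did the groups overlap (over all probe sets, 10.9% lay all below and 12.6% all above). Gadd45b passed only without PJ34 replicate 2 among the fits that left out 1 array (adjusted p = 0.0336), and Gadd45a missed the threshold without PBS replicate 2 or 3 (adjusted p = 0.055 and 0.0536). The other 6 adaptors and GTPases that were measured, such as Rac1 and Traf6, did not pass. Of 9 scaffold proteins, beta-arrestin 2 (Arrb2), which gathers JNK3 with its activators, was lower by limma (1.34% of all probe sets). The difference was -0.34 (SE 0.065, adjusted p = 0.0325 from limma), a call that no fit without 1 array kept (adjusted p = 0.056 to 0.128).

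None of 9 measured MAP kinases and MAP2 kinases of other branches passed. The lowest p values were those of Map2k5, the activator of ERK5 (difference -0.19, adjusted p = 0.143 from limma), and Mapk6, which encodes ERK3 (0.14, adjusted p = 0.273).

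Among 12 phosphatases that switch off p38 and JNK, 2 were higher and none lower by limma (1.72% and 1.34% of all probe sets). At an unadjusted p under 0.05, 5 were higher (8.95% of all probe sets), and the median difference was 0.12. Dusp1, an inducible nuclear phosphatase, was at 8.33, 8.33 and 8.35 with PBS and 8.99, 8.95 and 8.94 with PJ34. The replicates differed by far less than the groups, and the rise was 0.62 (SE 0.0585, adjusted p = 0.00193 from limma). Dusp10, which acts on p38 and JNK, was higher by 0.28 (SE 0.0585, adjusted p = 0.0425). That call was lost without any 1 array (adjusted p = 0.0661 to 0.156) and when each array was centred on its median (adjusted p = 0.123).

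Downstream, 1 of 6 measured kinases activated by p38 was higher by limma (1.72% of all probe sets). This was Mknk2, which phosphorylates the translation factor eIF4E, at 7.60, 7.67 and 7.77 with PBS and 8.12, 8.08 and 8.06 with PJ34 (difference 0.41, SE 0.0672, adjusted p = 0.0172). It kept the call only without PBS replicate 3 or PJ34 replicate 2 (adjusted p = 0.0413 and 0.0416), and without any other array its adjusted p was 0.0548 to 0.0833. The main effector kinase of p38, Mapkapk2 (MK2), named for its role after its value was seen, differed by -0.07. Mapkapk3 and Mapkapk5 of the same list differed by -0.22 and -0.12 (adjusted p = 0.189 and 0.357 from limma). At an unadjusted p under 0.05, 2 of the 6 were higher and 1 lower (8.95% and 7.74% of all probe sets). Of 12 transcription factor substrates, Ddit3, the stress factor CHOP, was lower and none was higher (1.34% and 1.72% of all probe sets). Ddit3 was at 8.58, 8.57 and 8.52 with PBS and 7.81, 7.80 and 7.74 with PJ34 (difference -0.78, SE 0.0606, adjusted p = 0.000785 from limma). Jun, the JNK substrate, differed by 0.01 at a level well below the median of the array.

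The mRNAs whose stability p38, MK2 and the decay factor Zfp36 set were mostly weakly detected, with only 3 of 10 above the median level of the array. Zfp36 itself was at 5.73, 5.93 and 5.81 with PBS and 6.71, 7.08 and 6.88 with PJ34, and rose by 1.07 (SE 0.0999, adjusted p = 0.00193 from limma). Csf2, which encodes the cytokine GM-CSF, rose by 0.63 (SE 0.0916, adjusted p = 0.0104) at a level below the median. Both missed the threshold when the study's own test was adjusted here as limma's was (adjusted p = 0.0707 for Zfp36 and 0.11 for Csf2). That adjustment is not the paper's criterion. The paper lists Zfp36 among its upregulated genes and states no adjustment of its array p-values. Csf2 also missed the threshold when probe sets with no gene were tested too (adjusted p = 0.0589 from limma). The other 8, among them Tnf and Il6, did not pass, and the median of the 10 was 0.09.

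**Figure D5:**
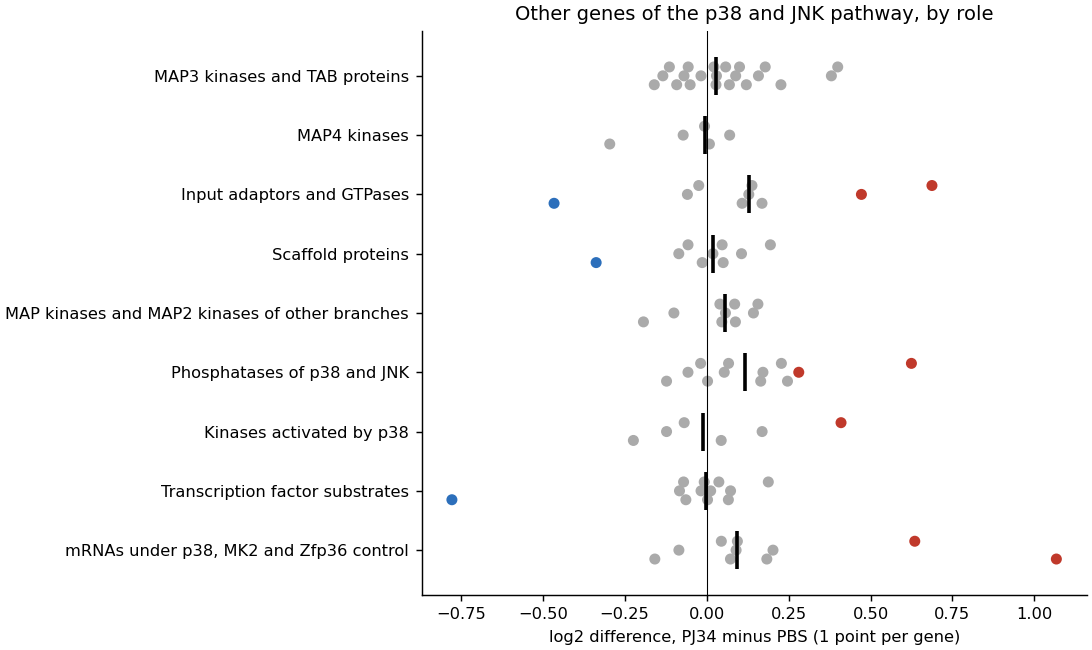
Log2 difference, PJ34 minus PBS (horizontal axis), of the 93 measured genes in 9 lists of the p38 and JNK relay, 1 point per gene, with black bars at list medians, red for genes higher and blue for genes lower by limma at an adjusted p under 0.05. Zfp36 at 1.07 and Ddit3 at -0.78 lie farthest out.

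The 6 arrays had medians of 4.41 to 4.46 and correlated at 0.992 to 0.995 with arrays of their own group and at 0.992 to 0.994 with those of the other, so that no array stood apart. Parp1, whose protein PJ34 inhibits, differed by -0.07 (SE 0.0664, adjusted p = 0.697 from limma), and its mRNA is no check on an inhibitor of the protein. Of 12 myeloid markers 1, Cebpa, was at or above the median level, and defining markers such as Mpo and Csf1r were below it. Of 11 T and NK cell markers 4 were above it, with the T cell receptor chains Cd3e and Cd3g at 6-array means of 10.5 and 11.1. Zap70 at 7.30 and Cd3d at 4.76 were also above it, and the remaining T and NK cell markers, such as Cd247, Cd4 and Cd8a, were below it. Of 6 fibroblast markers 3 were also above it, such as Col1a1 at 5.22, so passing this level does not by itself show expression. The labelled myeloid identity was thus not borne out by most of the myeloid markers. Of the T and NK cell markers 2 were higher by limma with PJ34 (1.72% of all probe sets). These were Cd4 by 0.62 and Gzma by 0.90, both below the median level. None of the myeloid, B, erythroid or fibroblast markers passed limma's test. Their part in the values above was not tested.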

How the data were processed

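RNA from C1498 cells was measured on Affymetrix Mouse Gene arrays, 3 with PBS and 3 with PJ34 at 20 μM, and samples were grouped by their labels. The deposited log2 values, 1 per probe set and array, were made by the authors with RMA in Affymetrix Expression Console 1.3.1, per the submitters' processing notes, which corrects background, normalizes between arrays by quantiles and summarises probes. Such values compress small signals, and they carry no detection calls here. The genome build behind the table is not given in the sources used here.

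Of 35556 probe sets, 23410 had a gene in the platform annotation (21789 with 1 gene, 1621 with several) and were tested, and 12146 had none. PJ34 was compared with PBS by limma 3.58.1 in R 4.3.3 (lmFit and eBayes, two-sided, Benjamini-Hochberg over 23410, threshold 0.05), a fit checked on simulated data. The probe set with the highest 6-array mean stood for each gene. Intervals are 95%, from the same fit. Other quantities, sequences (RefSeq) and plots came from Python 3.11.15.

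Members and lists were chosen with earlier results of these data known. Named were all members, in each list up to 4 genes of largest change that passed, or the 2 of lowest p, the 5 profiles closest to Mapk11, the nearest 2 measured genes on each side of the p38 pairs, and Parp1. No column of another series was present. Alternatives were a replicate block, median centring, an intensity trend with robust eBayes, no dim probe sets, all probe sets, the methods' t-test, the mean over a gene's probe sets and leaving out each array. The paper calls its array experiments independent, while the labels do not say whether the samples were separate cultures. If they were not, p-values measure technical spread. In any case the number of arrays limits the precision.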

Additional observations from a re-analysis of the deposited data

How the results depend on the processing

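The difference of Mapk11, which chose it, ran from -1.09 to -0.99 over the 12 alternatives run for the members (testing probe sets with no gene was not among them), and this range is no independent support for it. With all 6 arrays 402 probe sets were higher and 314 lower. The counts became 1008 and 920 when eBayes was robust and followed intensity, 891 and 776 without dim probe sets, 112 and 76 when probe sets with no gene were tested too, and 78 and 62 by the methods' t-test. Dropping a single array left 143 to 281 higher and 79 to 320 lower. Among the genes of the relay, 7 higher and 3 lower became 3 and 1 when probe sets with no gene were tested too. They became 3 and 1 with the methods' t-test, and 4 to 6 and 1 to 2 without 1 array. The counts rose to 10 and 4 when eBayes was robust and followed intensity, and to 9 and 5 without dim probe sets. Same-numbered samples deviated together with r of -0.013, 0.131 and -0.0089, and differently numbered ones with r of -0.147 to 0.145. With 3 arrays per group, these values cannot settle whether the numbers pair the samples. With the replicate block, 219 probe sets were higher and 140 lower, and 4 genes of the relay were higher. Why the counts moved was not tested. The differences of Mapk9, Mapk13, Mapk14 and Map2k6, all within 0.15 of 0, changed sign when some arrays were dropped, and that of Mapk14 also with median centring, so no direction is read for them. Signal near the array median limits Mapk12, Mapk13 and Csf2.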
